A study of Mus musculus with 32 samples.

Results

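The genes described here encode the contractile actins and the proteins that sit on actin filaments in smooth muscle: Acta1, Acta2 and Actg2 (muscle actins), Tagln, Cnn1 and Cnn2 (transgelin and calponins), Tpm1 and Tpm2 (tropomyosins), Myl9 (a myosin regulatory light chain) and Flnc (a filamin). They were chosen by name, with earlier results of these data known. Every probe annotated to 1 of these 10 symbols and to no other symbol was taken. This gave 19 of 45101 probe sets on the RNAi arrays, where 18193 genes were named, and 10 of 21106 probes on the differentiation arrays, where 14461 genes were named. All 10 genes were measured on both kinds of array, and no probe carried a member's symbol together with another symbol.

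The study used the mouse embryonic stem cell line E14TG2a and asked which genes change when a pluripotency factor is depleted or when the cells are made to differentiate. In the first experiment cells carried a plasmid for RNA interference against Pou5f1 (4 arrays), one against Nanog (5 arrays) or the parental vector pSUPER-puro (5 arrays), and total RNA was read on Affymetrix mouse genome arrays. In the second experiment cells were treated with retinoic acid (RA, 0.1 µM), dimethyl sulfoxide (DMSO, 1%) or hexamethylene bisacetamide (HMBA, 3 mM), and RNA of days 2, 4 and 6 was set against RNA of untreated E14 cells on 2-colour arrays, 2 arrays of opposite dye for each treatment and day. The RNAi cells were transfected with Lipofectamine and selected from 24 hours on with 1 µg/ml puromycin for 3 days. All cells are of a single line, the control of the RNAi arrays is an empty vector and not a construct against an unrelated gene, and the untreated cells are a common reference with no vehicle group of their own. DMSO is itself one of the 3 inducers.

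Smooth muscle cells shorten when myosin, switched on by phosphorylation of its regulatory light chain, pulls on actin filaments that carry tropomyosin and calponin. Many of these genes are also used outside muscle, in cells that spread, migrate or build stress fibres, so their transcripts mark an actin programme as well as a cell type. Serum response factor (SRF) binds a sequence called the CArG box in the promoters of many of them, with myocardin or the related factors Mrtfa and Mrtfb as partners.

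To show where such letters lie, promoters of 4 members are printed here, each from 250 bases before to 50 bases after the start site, as given by RefSeq on GRCm38.p6. Promoters were found for 8 of the 10 genes, 9 promoters in all, and none was matched for Actg2 and Tagln. An exact CArG box was present in those of Acta1, Cnn2 and Myl9, starting 73, 56 and 161 bases before the start site, and it is in capitals in these sequences. In the Acta2 promoter the capitals mark the CArG box with exactly 1 letter off, at 84 and 34 bases before the start. The box is its own reverse complement, so 1 search covers both strands.
Acta1, chr8:123894726-123895025, minus strand: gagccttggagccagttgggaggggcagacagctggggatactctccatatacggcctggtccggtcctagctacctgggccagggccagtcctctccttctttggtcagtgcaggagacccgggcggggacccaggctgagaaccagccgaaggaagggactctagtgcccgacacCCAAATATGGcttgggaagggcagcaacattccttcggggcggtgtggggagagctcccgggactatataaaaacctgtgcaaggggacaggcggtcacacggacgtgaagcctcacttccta
Cnn2, chr10:79988350-79988649, plus strand: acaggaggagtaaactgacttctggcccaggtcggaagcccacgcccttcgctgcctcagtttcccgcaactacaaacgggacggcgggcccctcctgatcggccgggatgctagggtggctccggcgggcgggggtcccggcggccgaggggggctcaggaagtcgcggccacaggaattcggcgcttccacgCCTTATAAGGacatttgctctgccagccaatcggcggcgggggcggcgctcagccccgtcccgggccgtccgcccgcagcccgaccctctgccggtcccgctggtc
Myl9, chr2:156775214-156775513, plus strand: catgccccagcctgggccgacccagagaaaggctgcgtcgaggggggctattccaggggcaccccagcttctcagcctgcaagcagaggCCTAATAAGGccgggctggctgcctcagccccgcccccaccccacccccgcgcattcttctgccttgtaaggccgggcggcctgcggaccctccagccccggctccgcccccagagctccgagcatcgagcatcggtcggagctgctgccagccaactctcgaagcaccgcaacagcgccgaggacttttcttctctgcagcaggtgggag
Acta2, chr19:34255324-34255623, minus strand: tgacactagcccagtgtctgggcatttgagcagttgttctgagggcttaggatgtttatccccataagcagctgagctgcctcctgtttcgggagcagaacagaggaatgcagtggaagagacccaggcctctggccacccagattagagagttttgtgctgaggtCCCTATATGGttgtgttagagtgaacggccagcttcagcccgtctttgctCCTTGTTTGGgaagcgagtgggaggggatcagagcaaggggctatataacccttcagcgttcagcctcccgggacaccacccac
Of 32851 promoters of this length 1.63% held an exact CArG box and 19.87% one with 1 letter off, which 5 of the 8 members had (Acta1, Acta2, Flnc, Myl9 and Tpm1). The letters CATTCC, read on both strands as the core of the site of TEAD factors, were in the promoters of Acta1, Acta2, Flnc and Tpm1 and in 14.66% of all. TATAAA, also read on both strands, was found in that of Acta1 and in 13.62% of all. None of these exact matches overlapped another. A match describes letters in this window and not binding.

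Log2 levels on the RNAi arrays run on the scale that RMA gives, and values of the differentiation arrays are log ratios of treated over untreated cells, taken here as log2, so 0 is the untreated level. A call is an adjusted p under 0.05 in limma, with Benjamini-Hochberg adjustment over all 45037 probe sets or all 16657 probes tested. A gene with several probe sets is given by the one of highest mean level, and the others follow. The knockdowns were visible in the targets: Pou5f1 averaged 9.03 ± 0.22 on Pou5f1 RNAi arrays, 11.32 ± 0.16 on Nanog RNAi arrays and 11.42 ± 0.089 on vector arrays, and Nanog averaged 9.70 ± 0.11, 9.29 ± 0.15 and 11.09 ± 0.079 on the same groups (SD, n = 4, 5 and 5). Arrays of a group correlated at 0.99 to 0.997. On the differentiation arrays 1 array stood apart, the second DMSO array of day 4, with 11257 values where the other 17 had 15679 to 20019. The labels do not say whether replicates were separate cultures, so p values measure the spread between arrays. In bulk RNA a larger share of cells with a transcript and more transcript per cell cannot be told apart.

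After Pou5f1 RNAi the contractile genes rose steeply: 9 of the 10 were higher than with vector and none was lower, where 16% of all probe sets were called higher and 15.6% lower. Their median difference was 2.37 on the log2 scale, against -0.04 over all probe sets. Since the members were chosen with earlier results of these data known, these shares and medians describe the group and do not test it. The changes spanned 43-fold for Tagln to 1.36-fold for Cnn1, and Actg2 was the member not called. Counted over all 19 probe sets of the members, 16 were called higher and 0 lower. On the 9 called genes every Pou5f1 RNAi array lay above every vector array, which held upward for 14.2% of all probe sets.

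**Figure D1:**
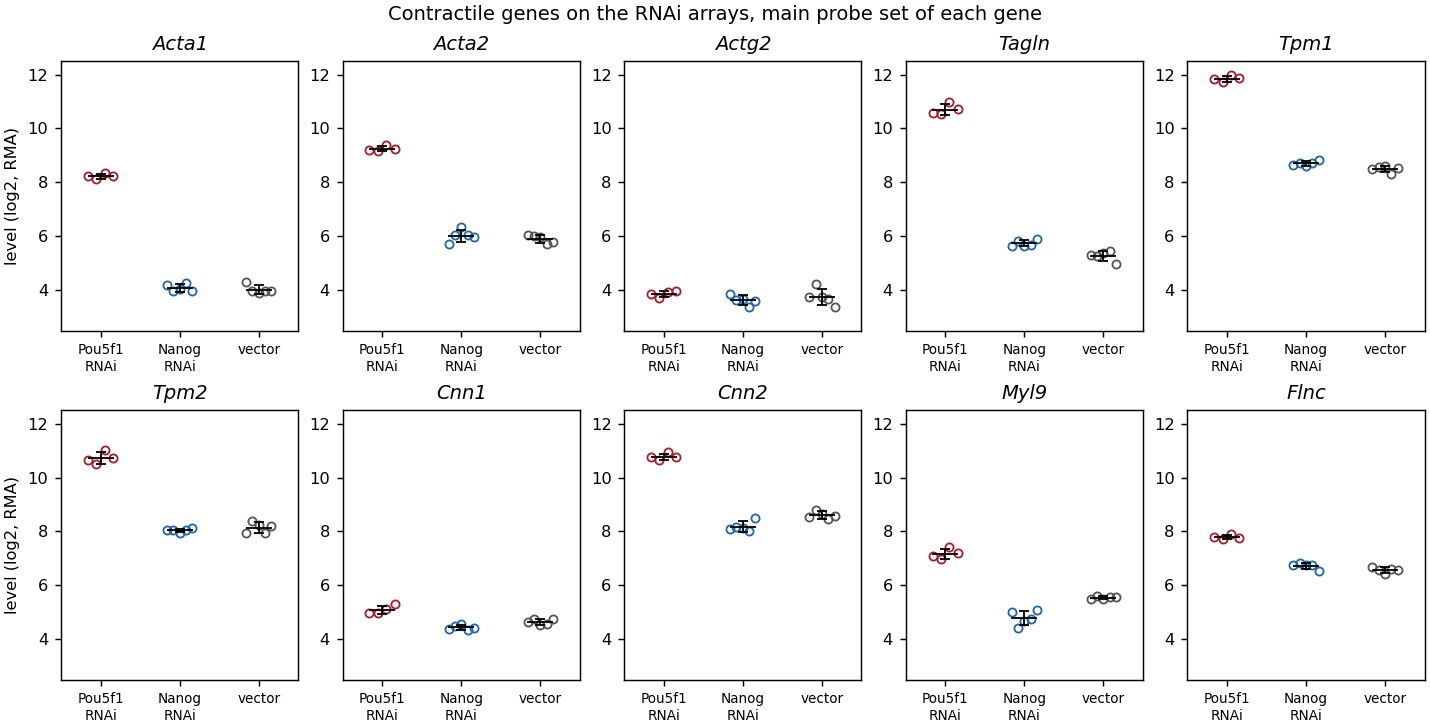
Log2 level of each of the 10 genes on every RNAi array, 1 panel a gene, with points for arrays and a bar for the group mean, the Pou5f1 RNAi, Nanog RNAi and vector groups from left to right. The Pou5f1 RNAi points lie apart from and above the vector points in 9 panels, and in the panel of Actg2 the groups overlap.

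Acta1, the actin of skeletal muscle fibres, was at 8.24, 8.11, 8.34 and 8.23 on Pou5f1 RNAi arrays, at 4.20, 3.98, 4.03, 4.26 and 3.96 on Nanog RNAi arrays, and at 4.32, 3.97, 3.89, 3.95 and 3.98 on vector arrays. The Pou5f1 RNAi arrays were alone at the high level, and the other arrays were mixed with each other. Acta1 was thus higher by 4.21 ± 0.09 (SE) than with vector, which is 18.4-fold (limma adjusted p = 7.6e-18). Acta2, the actin of vascular smooth muscle, stood at 9.21, 9.18, 9.38 and 9.22 on Pou5f1 RNAi arrays, 5.72, 6.04, 6.35, 6.04 and 5.97 on Nanog RNAi arrays and 6.05, 5.99, 5.98, 5.71 and 5.79 on vector arrays. Again only the first of these groups was set apart, and the difference from vector was 3.34 ± 0.11, or 10.1-fold (limma adjusted p = 1e-15). A further pair of probe sets for Acta2 stayed between 3.10 and 3.41 on all 14 arrays and was not called. Their differences from vector with Pou5f1 RNAi were 0.10 and 0.05. The Acta2 rise thus rests on 1 set, whose name ending marks possible binding to other transcripts. Actg2, the actin of visceral smooth muscle, was near the bottom of the scale, at 3.85, 3.69, 3.92 and 3.96 on Pou5f1 RNAi arrays, 3.86, 3.65, 3.69, 3.38 and 3.61 on Nanog RNAi arrays and 3.74, 4.24, 3.74, 3.67 and 3.39 on vector arrays. All 3 groups overlapped and the difference from vector, 0.10 ± 0.13, was not called (limma adjusted p = 0.64). Muscle actins are nearly identical in their coding sequence, and whether probes for one actin also bound another was not tested.

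Tagln, which encodes transgelin, an actin-bundling protein and an early marker of smooth muscle, had the largest change of the group. Its levels were 10.57, 10.53, 10.98 and 10.73 on Pou5f1 RNAi arrays, 5.65, 5.83, 5.66, 5.68 and 5.90 on Nanog RNAi arrays, and 5.31, 5.29, 5.36, 5.45 and 4.97 on vector arrays. The 3 groups did not overlap, with the Nanog RNAi arrays slightly above vector and the Pou5f1 RNAi arrays far above both. The Pou5f1 RNAi difference was 5.43 ± 0.10 (limma adjusted p = 9.7e-19). The calponins, which bind actin and damp myosin, moved very differently in size. Cnn2, the calponin found widely outside muscle, was at 10.75, 10.64, 10.93 and 10.76 on Pou5f1 RNAi arrays, 8.08, 8.18, 8.12, 8.01 and 8.51 on Nanog RNAi arrays and 8.54, 8.81, 8.67, 8.47 and 8.56 on vector arrays. It rose 4.47-fold (2.16 ± 0.10, limma adjusted p = 4.4e-13). Cnn1, the calponin of differentiated smooth muscle, stood at 4.97, 4.97, 5.12 and 5.29 on Pou5f1 RNAi arrays, 4.38, 4.49, 4.58, 4.35 and 4.41 on Nanog RNAi arrays and 4.65, 4.77, 4.51, 4.56 and 4.75 on vector arrays. The Pou5f1 RNAi arrays lay above both other groups, by a small margin, and the rise over vector was 0.44 ± 0.09 (limma adjusted p = 0.00032).

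The tropomyosins, which lie along the actin filament and control access of myosin, rose together. Tpm1 was at 11.84, 11.71, 11.97 and 11.86 on Pou5f1 RNAi arrays, 8.63, 8.73, 8.60, 8.71 and 8.84 on Nanog RNAi arrays and 8.49, 8.57, 8.60, 8.31 and 8.53 on vector arrays. Tpm2 was at 10.64, 10.51, 11.02 and 10.72 on Pou5f1 RNAi arrays, 8.05, 8.05, 7.93, 8.04 and 8.12 on Nanog RNAi arrays and 7.95, 8.39, 8.22, 7.96 and 8.21 on vector arrays. For both genes the Pou5f1 RNAi arrays stood alone, with differences from vector of 3.35 ± 0.08 for Tpm1 (limma adjusted p = 2.8e-17) and 2.57 ± 0.10 for Tpm2 (limma adjusted p = 4.9e-14). The other 3 probe sets of Tpm1 rose by 3.54, 2.40 and 0.43, and those of Tpm2 by 2.91, 2.66 and 0.36, all 6 called. In each gene the smallest of these belonged to a set that averaged 3.40 ± 0.16 (Tpm1) or 4.58 ± 0.12 (Tpm2) on Pou5f1 RNAi arrays, under the median of 4.62 over all RNAi values. Myl9, the regulatory light chain of smooth muscle and non-muscle myosin, stood at 7.10, 6.98, 7.42 and 7.19 on Pou5f1 RNAi arrays, 5.01, 4.41, 4.68, 4.77 and 5.07 on Nanog RNAi arrays and 5.51, 5.62, 5.51, 5.55 and 5.57 on vector arrays. Here the 3 groups fell into separate ranges with vector in the middle, and the Pou5f1 RNAi rise was 1.62 ± 0.11 (limma adjusted p = 2.8e-10). Flnc, a filamin that links actin to the membrane in striated muscle, was at 7.79, 7.74, 7.90 and 7.77 on Pou5f1 RNAi arrays, 6.77, 6.82, 6.74, 6.76 and 6.54 on Nanog RNAi arrays and 6.70, 6.57, 6.43, 6.60 and 6.55 on vector arrays. It rose by 1.23 ± 0.08 (limma adjusted p = 5.6e-11), and by 2.18 ± 0.09 on its other probe set. The Flnc set of highest mean, like the Tpm2 set that rose by 2.66, has a name ending that marks possible binding to other transcripts.

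**Figure D2:**
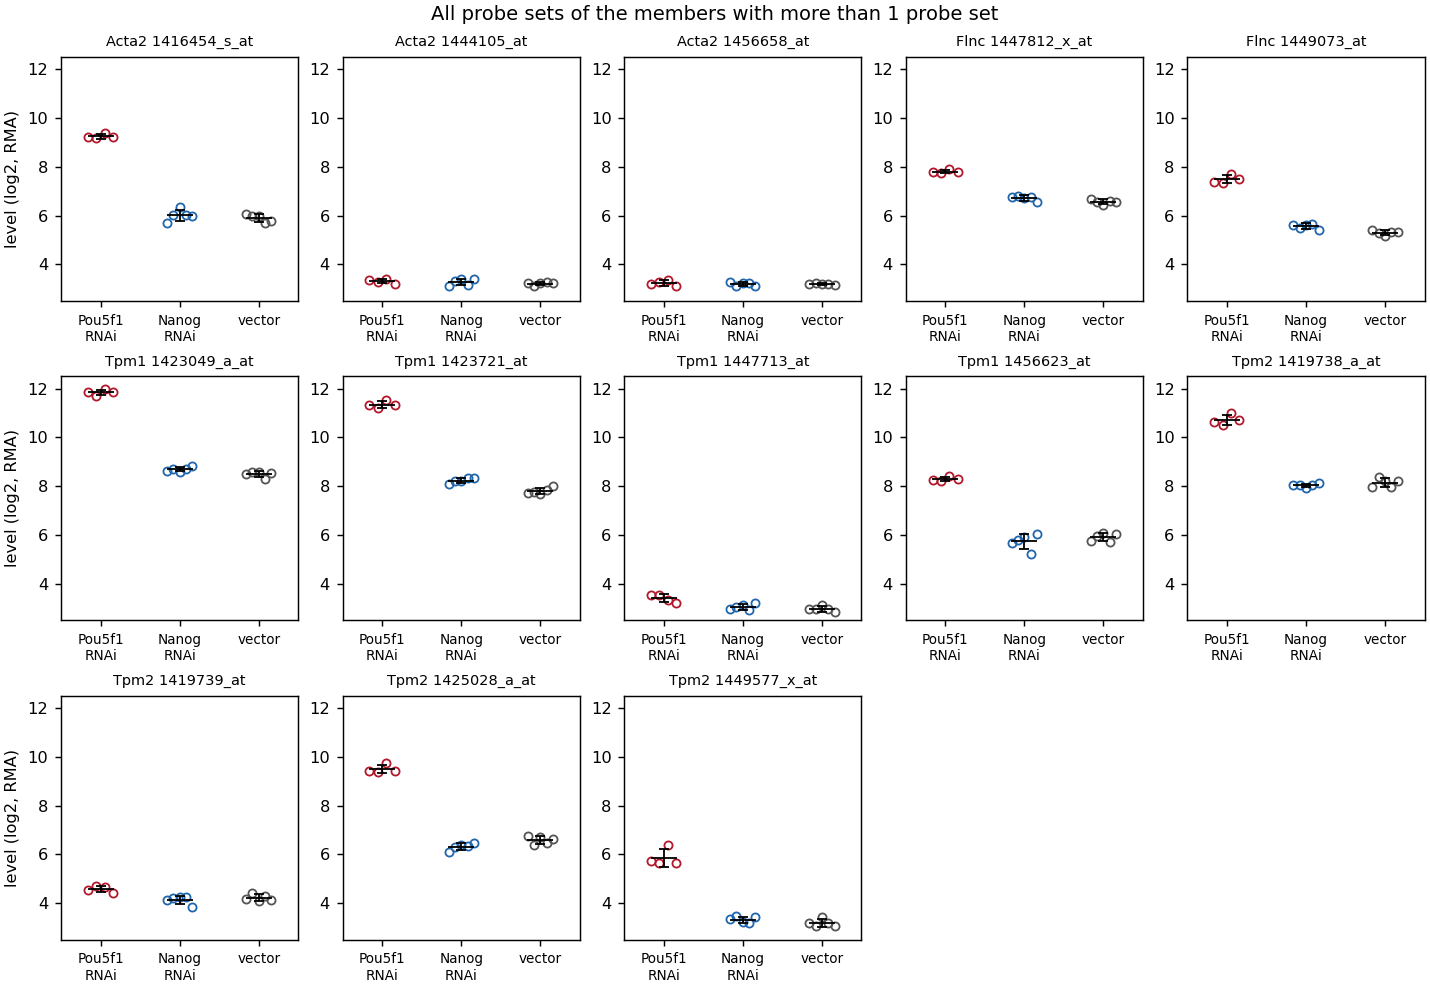
Log2 level on every RNAi array for all probe sets of Acta2, Tpm1, Tpm2 and Flnc, the members with more than 1 probe set, with points for arrays in the Pou5f1 RNAi, Nanog RNAi and vector groups. The further sets of Acta2 stay at 3.10 to 3.41, a set of Tpm1 and a set of Tpm2 rise by 0.43 and 0.36, and the remaining sets lie well above vector on Pou5f1 RNAi arrays, by at least 1.23.

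After Nanog RNAi the group did not move as one. Against vector 1 of the 10 was higher and 2 were lower, where 8.8% of all probe sets were called higher and 6.78% lower, and the median difference of -0.02 equalled that of all probe sets. Tagln rose by 0.47 ± 0.10, or 1.38-fold (limma adjusted p = 0.0019). Myl9 fell by 0.76 on the log2 scale (SE 0.11, limma adjusted p = 2.9e-05) and Cnn2 fell by 0.43 on the log2 scale (SE 0.09, limma adjusted p = 0.0026), so that Cnn2 and Myl9 were on opposite sides of vector in the 2 knockdowns. Tagln and Tpm1 lay above vector without overlap, as 6.58% of probe sets did, and Myl9 below it, as 4.72% did. Acta1 (0.06 ± 0.09), Acta2 (0.12 ± 0.10), Actg2 (-0.12), Tpm1 (0.20 ± 0.08), Tpm2 (-0.11 ± 0.10), Cnn1 (-0.21 ± 0.08) and Flnc (0.16 ± 0.07) were not called, with limma adjusted p of 0.084 to 0.75. Second probe sets of Tpm1 (0.43 ± 0.08, limma adjusted p = 0.00081) and Flnc (0.26 ± 0.08, limma adjusted p = 0.037) were called higher. Both knockdowns were compared with the same vector arrays.

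Set directly against Nanog RNAi, Pou5f1 RNAi gave higher levels for 9 of the 10, where 15% of probe sets were called higher, and Actg2 was again not called (0.22 ± 0.13, limma adjusted p = 0.25). For Myl9 this difference was 2.38 ± 0.11 (limma adjusted p = 8.9e-13) and for Cnn2 2.59 ± 0.10 (limma adjusted p = 3.2e-14), both above their differences from vector. The members' median was 2.64, against -0.01 over all probe sets.

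Chemical differentiation raised most of the same genes, with each inducer set against the common reference of untreated cells. Averaged over days 2, 4 and 6, RA raised 9 of the 10 over untreated cells, where 14.6% of probes were called higher, DMSO raised 7, where 9.4% were, and HMBA raised 8, where 13.4% were. None was called lower. In either direction 4182 probes were called with RA, 2834 with DMSO and 4137 with HMBA, of 16657 tested. Of these 2439, 1565 and 2237 were higher. The members' medians were 1.27 with RA, 0.69 with DMSO and 1.10 with HMBA, against -0.02, 0.02 and 0 over all probes. The 2 arrays of a day differ in dye orientation, which coincides with their replicate number. Deviations correlated over 0.1 in all 72 same-number pairs of arrays, so dye orientation was also fitted as a term. With 2 arrays a group their deviations mirror each other, so each r among first arrays recurs among second arrays. An effect of the dye and one of the replicate set cannot be told apart, so the dye term stands for both. Of 270 tests on members in all comparisons, 70 were called only with that term and 0 only without it, and those of the comparisons described are given in part. With that term 10, 9 and 10 members were called, where 49.3%, 41.1% and 47.9% of probes were called in either direction. The added calls were not particular to the members: over all probes the term raised the calls to 8204 with RA, 6838 with DMSO and 7964 with HMBA.

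**Figure D3:**
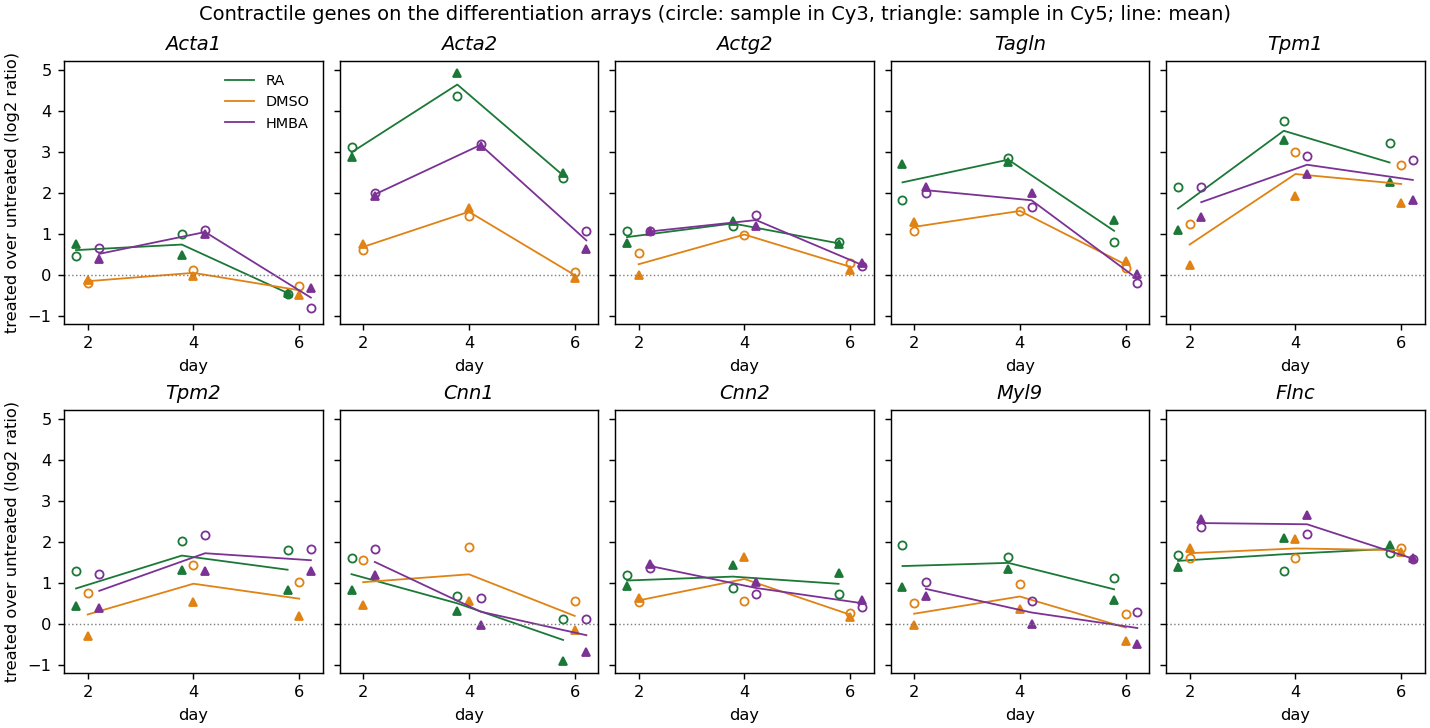
Log ratio of treated over untreated cells by day for each of the 10 genes, with circles for arrays that have the sample in Cy3, triangles for those with it in Cy5 and lines through the means of RA, DMSO and HMBA. The RA line of Acta2 peaks on day 4 at 4.64, Tagln is near 0 on day 6 with HMBA at -0.09, and Tpm1 stays above 2 on days 4 and 6 in each treatment.

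Acta2 had the highest mean of the 10 with RA, and the inducers fell in the same order on each day. With RA its log ratios were 3.11 and 2.87 on day 2, 4.36 and 4.92 on day 4 and 2.36 and 2.49 on day 6. DMSO gave 0.61 and 0.77, 1.45 and 1.64, and 0.08 and -0.07 on the same days, and HMBA gave 1.99 and 1.94, 3.19 and 3.14, and 1.07 and 0.63. On each day the RA arrays were highest, the HMBA arrays next and the DMSO arrays lowest, with no overlap. Over the days Acta2 was up by 3.35 ± 0.09 with RA (10.2-fold, limma adjusted p = 5.1e-10), by 0.74 ± 0.09 with DMSO (1.68-fold, limma adjusted p = 0.00014) and by 1.99 ± 0.09 with HMBA (3.98-fold, limma adjusted p = 2.6e-08). The differences between inducers were themselves called: 2.61 ± 0.13 for RA over DMSO (limma adjusted p = 1.7e-07), 1.36 ± 0.13 for RA over HMBA (limma adjusted p = 9.1e-05) and -1.25 ± 0.13 for DMSO over HMBA (limma adjusted p = 0.00039).

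Acta1 and Actg2 were smaller responders among the actins. Acta1 had log ratios of 0.47 and 0.75, 1.01 and 0.48, and -0.44 and -0.42 with RA on days 2, 4 and 6, of -0.18 and -0.11, 0.13 and -0.01, and -0.25 and -0.48 with DMSO, and of 0.65 and 0.39, 1.10 and 1.00, and -0.78 and -0.30 with HMBA. With RA and HMBA it was above untreated cells on days 2 and 4 and below on day 6, on both arrays of each day. Its mean over days was 0.31 ± 0.10 with RA (limma adjusted p = 0.035), -0.15 ± 0.10 with DMSO (limma adjusted p = 0.37) and 0.34 ± 0.10 with HMBA (limma adjusted p = 0.021). The RA call was lost without any of 4 of the RA arrays (limma adjusted p of 0.0876 to 0.174), and the HMBA call without any of 4 of the HMBA arrays (0.057 to 0.126). Actg2, not called in either knockdown, was up by 0.99 ± 0.09 with RA (limma adjusted p = 1.1e-05), 0.49 ± 0.11 with DMSO (limma adjusted p = 0.0075, 5 arrays) and 0.89 ± 0.09 with HMBA (limma adjusted p = 2.6e-05). Its lowest, median and highest ratios were 0.75, 0.94 and 1.31 with RA, 0.01, 0.29 and 0.99 with DMSO, and 0.22, 1.06 and 1.48 with HMBA, all above 0.

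Tagln was at 1.82 and 2.69, 2.86 and 2.76, and 0.81 and 1.35 on days 2, 4 and 6 with RA, and at 1.99 and 2.15, 1.65 and 1.99, and -0.19 and 0.02 with HMBA. DMSO arrays gave 1.07 and 1.28 on day 2, a single value of 1.56 on day 4 and 0.18 and 0.34 on day 6. In each treatment the day 6 arrays were the lowest. Its means were 2.05 ± 0.12 with RA (limma adjusted p = 3.1e-07), 1.00 ± 0.14 with DMSO (limma adjusted p = 0.00041) and 1.27 ± 0.12 with HMBA (limma adjusted p = 1.4e-05). Cnn2 rose by 1.07 ± 0.13 with RA (limma adjusted p = 7.2e-05), 0.64 ± 0.13 with DMSO (limma adjusted p = 0.0048) and 0.94 ± 0.13 with HMBA (limma adjusted p = 0.0002). Its 18 ratios lay between 0.18 and 1.64, none below 0. Cnn1 scattered more, from -0.89 to 1.61 with RA, -0.15 to 1.87 with DMSO and -0.66 to 1.82 with HMBA. It was called with DMSO (0.81 ± 0.22, limma adjusted p = 0.024), a call lost without the first array of any of the 3 days (limma adjusted p of 0.0968 to 0.126). With RA (0.45 ± 0.08) and HMBA (0.52 ± 0.08) it was called only with the dye term (limma adjusted p = 0.00018 and 4e-05, against 0.17 and 0.12 without it).

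Tpm1 was up on all 18 arrays, with a lowest, median and highest ratio of 1.09, 2.74 and 3.74 for RA, 0.25, 1.85 and 2.99 for DMSO and 1.41, 2.31 and 2.90 for HMBA. The treatments overlapped widely, and the means were 2.62 ± 0.23 with RA (limma adjusted p = 3.5e-06), 1.81 ± 0.23 with DMSO (limma adjusted p = 0.00012) and 2.26 ± 0.23 with HMBA (limma adjusted p = 1.2e-05). Tpm2 rose by 1.29 ± 0.22 with RA (limma adjusted p = 0.00083) and 1.37 ± 0.22 with HMBA (limma adjusted p = 0.00052). With DMSO Tpm2 was at 0.62 ± 0.07, called only with the dye term (limma adjusted p = 9.1e-07, against 0.078 without it). Myl9 was up with RA, at a lowest, median and highest ratio of 0.59, 1.23 and 1.92 (1.25 ± 0.17, limma adjusted p = 0.00014). With DMSO (0.29 ± 0.07) and HMBA (0.35 ± 0.07) Myl9 had ratios on both sides of 0 and was called only with the dye term (limma adjusted p = 0.0051 and 0.00068, against 0.31 and 0.16 without it). Flnc was up on all 18 arrays, between 1.31 and 2.10 with RA, 1.60 and 2.07 with DMSO and 1.58 and 2.66 with HMBA. Its means were 1.69 ± 0.11, 1.79 ± 0.11 and 2.16 ± 0.11 (limma adjusted p = 4.4e-07, 5e-07 and 6e-08), and RA and DMSO were not called different for Flnc (-0.10 ± 0.16, limma adjusted p = 0.89).

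Leaving out the DMSO array of day 4 that had few values kept 7 calls for DMSO over the days, with Acta2 at 0.71 ± 0.11 and Tpm1 at 1.99 ± 0.25. Leaving out the other array of that day left 4: Actg2 and Tagln then had no value for that day and were not tested, and Cnn1 was no longer called (limma adjusted p = 0.0968). On day 4 itself 6 members were called with DMSO and 5 without the array of few values, when Cnn2 was at 0.56 ± 0.25 (limma adjusted p = 0.36). Without the other array 3 were called, since Actg2 and Tagln were again not tested and Tpm1 was no longer called (limma adjusted p = 0.0645).

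Which members told the inducers apart was tested on the means over days. RA was above DMSO for Acta2, Tagln (1.05 ± 0.18, limma adjusted p = 0.0054) and Myl9 (0.97 ± 0.24, limma adjusted p = 0.03), 3 of 10 where 3.71% of probes were called higher. RA was above HMBA for Acta2 and Tagln (0.78 ± 0.17, limma adjusted p = 0.028), 2 of 10 where 2.05% were called higher. DMSO was below HMBA for Acta2 alone, 1 of 10 where 0.967% were called lower. With the dye term 9, 5 and 5 members differed, where 22.7%, 16.5% and 9.67% of probes were called in either direction. Among the added calls were Tpm1 for RA over DMSO (0.82, limma adjusted p = 2.4e-05), Flnc lower with RA than with HMBA (-0.47, limma adjusted p = 0.015) and Cnn1 lower with RA than with DMSO (-0.37, limma adjusted p = 0.031). Myl9 was also higher with RA than with HMBA with that term (0.90, limma adjusted p = 7.9e-06). The call of Tagln for RA over HMBA was lost, leaving 1 member, when an array was left out from RA day 4 (either), RA day 6 (replicate 2), HMBA day 2 or 6 (either) or HMBA day 4 (replicate 1), with limma adjusted p of 0.0606 to 0.0898, and with arrays scaled to one spread (0.0934). Without replicate 1 of DMSO day 4 Tagln was not tested. The call of Myl9 for RA over DMSO was lost without RA day 2 or 6 replicate 1, either array of RA day 4, or replicate 2 of any DMSO day (limma adjusted p of 0.0544 to 0.103), and with that scaling (0.0636).

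By day, 7, 9 and 7 members were higher on days 2, 4 and 6 with RA, where 4.24%, 5.81% and 9.16% of probes were called higher. With DMSO the counts were 2, 6 and 2, where 0.828%, 3.55% and 5.64% were, and with HMBA 7, 8 and 4, where 3.04%, 7.62% and 6.44% were. Over all probes the share called higher thus grew to day 6 with RA and DMSO, while members called were fewest or tied for fewest on that day. With the dye term 10, 10 and 10 members were called with RA, 6, 9 and 3 with DMSO and 10, 8 and 6 with HMBA, where 22.6%, 29.4%, 40.4%, 10.3%, 25.6%, 31.1%, 21.3%, 33.3% and 32.9% of probes were, in either direction. On RA day 6 these include Acta1 and Cnn1 as lower (-0.43 and -0.38, limma adjusted p = 0.026 and 0.042), and on HMBA day 6 Acta1 as lower (-0.54, limma adjusted p = 0.0079). With 2 arrays a day these counts rest on single arrays: 3 were left on RA day 2 without replicate 1, on RA day 6 without replicate 2, and on HMBA day 2 without either array. Likewise 0 or 1 were left on DMSO day 2 without either of its arrays, and 1 on DMSO day 6 or HMBA day 6 without its replicate 1.

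The course over days split the group. Acta2 was higher on day 4 than on day 2 with RA (1.65 ± 0.23, limma adjusted p = 0.018) and HMBA (1.20 ± 0.23, limma adjusted p = 0.032), and with DMSO only with the dye term (0.85 ± 0.20, limma adjusted p = 0.022, against 0.25 without it). It was lower on day 6 than on day 4 with RA (-2.21 ± 0.23, limma adjusted p = 0.0083), DMSO (-1.54 ± 0.23, limma adjusted p = 0.035) and HMBA (-2.32 ± 0.23, limma adjusted p = 0.0012). No other member was called for day 4 over day 2, so the counts with RA, DMSO and HMBA were 1, 0 and 1 of 10, where 0.12%, 0.126% and 0.462% of probes were called higher. For day 6 over day 4 they were 1, 1 and 3, where 0.024%, 0.054% and 0.048% were called lower. The others called were Tagln (-1.91 ± 0.30, limma adjusted p = 0.031) and Acta1 (-1.59 ± 0.24, limma adjusted p = 0.022), lower on day 6 than on day 4 with HMBA. Many of these calls rest on single arrays. For day 4 over day 2, the Acta2 call was lost without any of 4 of the 18 arrays with RA (limma adjusted p of 0.0545 to 0.175) and any of 10 with HMBA (0.0522 to 0.259). For day 6 over day 4 it was lost without any of 2 with RA (0.0761 to 0.112) and any of 12 with DMSO (0.0507 to 0.46), and kept with HMBA without any single array. With HMBA Acta1 was lost without any of 6 (0.0507 to 0.311) and Tagln without any of 12 (0.0614 to 0.426). With arrays scaled to one spread Acta2 was not called for DMSO day 6 over day 4 (0.177) or HMBA day 4 over day 2 (0.413).

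With the dye term 3, 3 and 4 members were called for day 4 over day 2 with RA, DMSO and HMBA, where 3.41%, 4.34% and 7.71% of probes were, and 5, 4 and 4 for day 6 over day 4, where 1.93%, 1.82% and 1.39% were. Tagln was then lower on day 6 than on day 4 with RA (-1.73, limma adjusted p = 0.00019) and DMSO (-1.45, limma adjusted p = 0.0043), as were Acta1 with RA (-1.18, limma adjusted p = 0.0054), Cnn1 with RA (-0.89, limma adjusted p = 0.03) and DMSO (-1.01, limma adjusted p = 0.01), Myl9 with DMSO (-0.76, limma adjusted p = 0.04) and Actg2 with HMBA (-1.09, limma adjusted p = 0.0037). Cnn1 was lower on day 4 than on day 2 with HMBA (-1.21, limma adjusted p = 0.00095). Tpm2 was higher on day 4 than on day 2 by 0.80 with RA, 0.75 with DMSO and 0.91 with HMBA (limma adjusted p = 0.011, 0.014 and 0.0021). Tpm1 was higher on day 4 than on day 2 as well, with steps of 1.89 with RA, 1.71 with DMSO and 0.91 with HMBA, called only with the dye term (limma adjusted p = 1.7e-05, 3e-05 and 0.0056). Between days 4 and 6 Tpm1 stayed within 0.37 with DMSO and HMBA and was lower by 0.77 with RA (-0.77, limma adjusted p = 0.046 with the dye term). These steps between neighbouring days were added after the values had been seen.

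Day 6 was set against day 2 as planned. No member was called with RA or DMSO, where 1.09% and 0.955% of probes were called in either direction, and with HMBA Acta2 (-1.12 ± 0.23, limma adjusted p = 0.035) and Tagln (-2.15 ± 0.30, limma adjusted p = 0.0035) were lower, where 0.798% were called lower. The Acta2 call was lost without any of 12 of the 18 arrays (limma adjusted p of 0.0531 to 0.349). With the dye term 4, 4 and 9 members were called, where 10.6%, 9.89% and 10% of probes were. These included Cnn1 as lower with each inducer (-1.60 with RA, -0.82 with DMSO, -1.78 with HMBA, limma adjusted p = 4.9e-05, 0.014 and 1.4e-05) and Tpm1 as higher with RA (1.12, limma adjusted p = 0.00091) and DMSO (1.47, limma adjusted p = 6.9e-05). Whether the change from day 2 to day 6 differed between inducers was also tested, and 0 of 30 such tests on members were called by limma, where 0.102%, 0.03% and 0.198% of probes were called. With the dye term 1 was, Tagln for DMSO over HMBA (1.24, limma adjusted p = 0.027), where 2.63% of probes were called in that comparison.

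**Figure D4:**
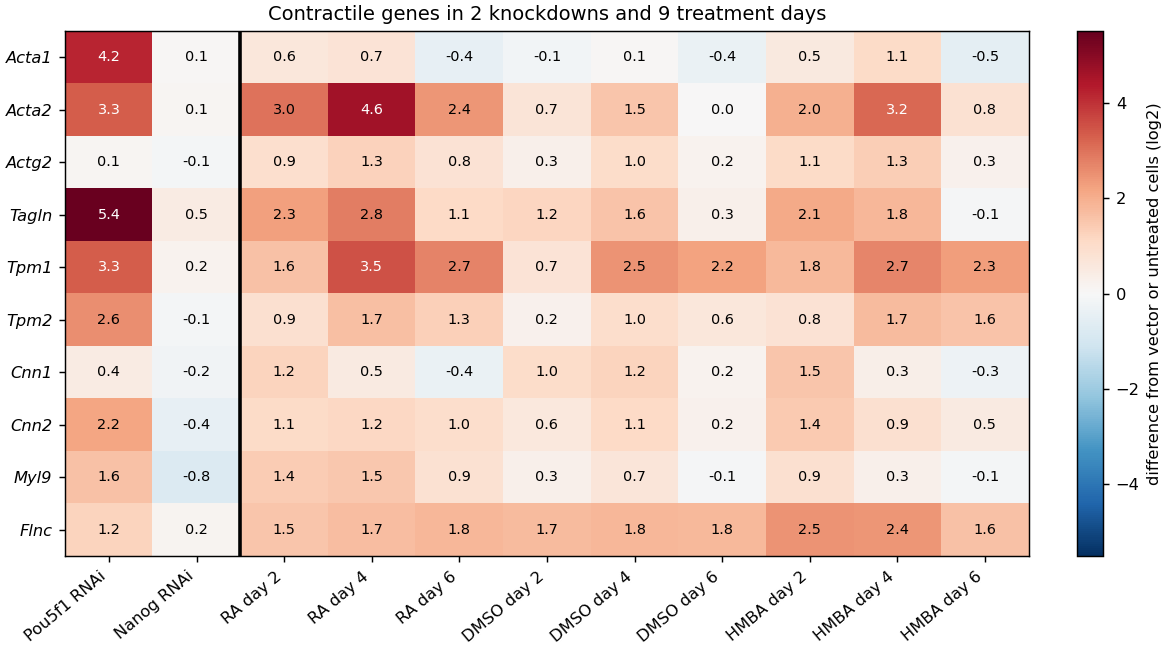
Heat map of the 10 genes (rows) in 11 conditions (columns), the 2 knockdowns relative to vector and the 9 treatment days relative to untreated cells, each cell printed with its mean log2 difference. Tagln with Pou5f1 RNAi (5.43) and Acta2 on RA day 4 (4.64) are the darkest cells, and the Nanog RNAi column is pale.

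Members differed in where they rose most. Acta1 was up by 4.21 with Pou5f1 RNAi and by no more than 1.05 on a treatment day, whereas Actg2 was not called with Pou5f1 RNAi (0.10) and reached 1.34 on HMBA day 4. Acta2 reached 3.34 with Pou5f1 RNAi and 4.64 on RA day 4. The platforms differ in probes and scale, so these values stand side by side without a test. Over the 11 conditions the pattern most like that of Acta2 by Pearson's r was that of Myl9 (0.841), then Cyp1b1, a cytochrome P450 (0.802), Nuak1, a kinase (0.768), Myh10, a non-muscle myosin heavy chain (0.747), and Adgra2, an adhesion receptor (0.733). For Tagln the closest were Acta1 (0.935), Pdlim7, a PDZ and LIM domain protein of stress fibres (0.93), Setd7, a lysine methyltransferase (0.925), Csrp1, a LIM domain protein of smooth muscle (0.917), and Trio (0.893). These are the 5 highest of 788 genes that spanned at least 2 log2 over the 11 conditions, and the conditions share vector arrays or the untreated RNA. The order depends on the measure: by Spearman's rho Nuak1 (0.891) was nearer to Acta2 than Myl9 (0.845), and Myl9 (0.909) nearer to Tagln than Acta1 (0.873). Flnc resembled neither Acta2 (0.308) nor Tagln (0.038).

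The other genes of the actin and smooth muscle machinery were counted from lists, which were written with earlier results of these data known. Of 14 further actin, tropomyosin, calponin, transgelin, filamin, light chain and alpha-actinin genes, 13 were higher and 1 lower with Pou5f1 RNAi (median 0.50, against -0.04 over all probe sets). The largest rises were those of Tpm4, a cytoskeletal tropomyosin (2.51 ± 0.07, limma adjusted p = 3.7e-16), and Tagln2, a transgelin of non-muscle cells (2.07 ± 0.09, limma adjusted p = 1.2e-13), and Tagln3, the neuronal form, fell by 0.62 on the log2 scale (SE 0.11, limma adjusted p = 0.00015). With Nanog RNAi 1 of them was higher, Actn4, an actin cross-linker (0.31 ± 0.08), and 1 lower, Myl12b, a light chain (-0.36 ± 0.07). Of 12 such genes on the differentiation arrays 6 were higher and 0 lower with RA, 3 and 1 with DMSO and 6 and 2 with HMBA. Beside this list, 16% of all probe sets were called higher and 15.6% lower with Pou5f1 RNAi, and 8.8% and 6.78% with Nanog RNAi. Of all probes 14.6%, 9.4% and 13.4% were called higher with RA, DMSO and HMBA. In either direction 4182, 2834 and 4137 of 16657 probes were called, 2439, 1565 and 2237 of them higher. Actc1, the cardiac actin, was up with RA (1.50 ± 0.11, limma adjusted p = 2.3e-06), DMSO (0.56 ± 0.13, limma adjusted p = 0.011) and HMBA (0.81 ± 0.11, limma adjusted p = 0.00026). Actg1, a cytoplasmic actin, was up with RA (0.99 ± 0.12), DMSO (0.79 ± 0.12) and HMBA (0.98 ± 0.12), and Flna, the widespread filamin, was down with DMSO and HMBA (-0.52 ± 0.14 and -0.58 ± 0.14).

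Markers of differentiated smooth muscle outside the group moved in both directions. Of 14 with Pou5f1 RNAi 5 were higher and 2 lower (median 0.12), with Nanog RNAi 6 and 2 (0.15), and of 12 on the other arrays 6 and 1 with RA (0.49), 2 and 2 with DMSO (0.24) and 3 and 2 with HMBA (0.23). Over all probe sets or probes 16%, 8.8%, 14.6%, 9.4% and 13.4% were called higher in the same 5 comparisons. With Pou5f1 RNAi and Nanog RNAi 15.6% and 6.78% of probe sets were called lower. With RA, DMSO and HMBA 4182, 2834 and 4137 of 16657 probes were called in either direction, 2439, 1565 and 2237 of them higher. The large rises were in Csrp1 (3.70 ± 0.09, limma adjusted p = 1.4e-17) and Cald1, caldesmon, an actin-binding regulator (3.62 ± 0.08, limma adjusted p = 1.4e-17), with Pou5f1 RNAi. Myh11, the myosin heavy chain that defines mature smooth muscle, was at 0.04 ± 0.09 in the same comparison (limma adjusted p = 0.80), and Csrp2 fell by 1.46 on the log2 scale (SE 0.07, limma adjusted p = 1.7e-12). Csrp1 was also up with RA (1.49 ± 0.20), DMSO (1.11 ± 0.20) and HMBA (1.58 ± 0.20). Desmin, the muscle intermediate filament gene Des, was up with RA (1.19 ± 0.10, limma adjusted p = 4.6e-06).

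A list of SRF, its cofactors and targets also held Rhoa, Rock1 and Rock2. Of its 15 measured genes 11 were higher and 2 lower with Pou5f1 RNAi (median 0.60), 3 and 3 with Nanog RNAi (0.11). Srf itself was lower by a little (-0.22 ± 0.07, limma adjusted p = 0.018), while the cofactors Mrtfb (1.59 ± 0.09), Mrtfa (0.55 ± 0.13) and Myocd (0.49 ± 0.08) were higher, with limma adjusted p of 1.4e-11, 0.0021 and 7e-05. The targets Rhob, a small GTPase (4.06 ± 0.10, limma adjusted p = 4.5e-17), and Zyx, zyxin of focal adhesions (3.36 ± 0.10, limma adjusted p = 8.7e-16), rose most, and Egr1, an immediate early factor, fell by 2.74 on the log2 scale (SE 0.08, limma adjusted p = 3.4e-16). Of 9 measured on the differentiation arrays 4, 4 and 5 were higher and 0 lower with RA, DMSO and HMBA, led in each by Rhob (2.44 ± 0.09, 1.80 ± 0.09 and 2.20 ± 0.09) and Zyx (1.13 ± 0.12, 0.93 ± 0.14 and 1.28 ± 0.12). In the TGF-beta pathway, whose ligands induce contractile genes in many cells, 7 of 13 were higher and 1 lower with Pou5f1 RNAi (median 0.25), 3 and 2 with Nanog RNAi (0), and of 11 on the other arrays 6, 2 and 4 were higher and 0 lower with RA, DMSO and HMBA. Beside both lists, 16% of all probe sets were called higher and 15.6% lower with Pou5f1 RNAi, and 8.8% and 6.78% with Nanog RNAi. Of all probes 14.6%, 9.4% and 13.4% were called higher with RA, DMSO and HMBA. In either direction 4182, 2834 and 4137 of 16657 probes were called, 2439, 1565 and 2237 of them higher. Thbs1, thrombospondin, an activator of latent TGF-beta, was up with Pou5f1 RNAi (2.49 ± 0.11), Nanog RNAi (1.94 ± 0.10), RA (1.34 ± 0.19), DMSO (1.38 ± 0.22) and HMBA (1.56 ± 0.19). Tgfbi was up most with RA (2.68 ± 0.11).

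**Figure D5:**
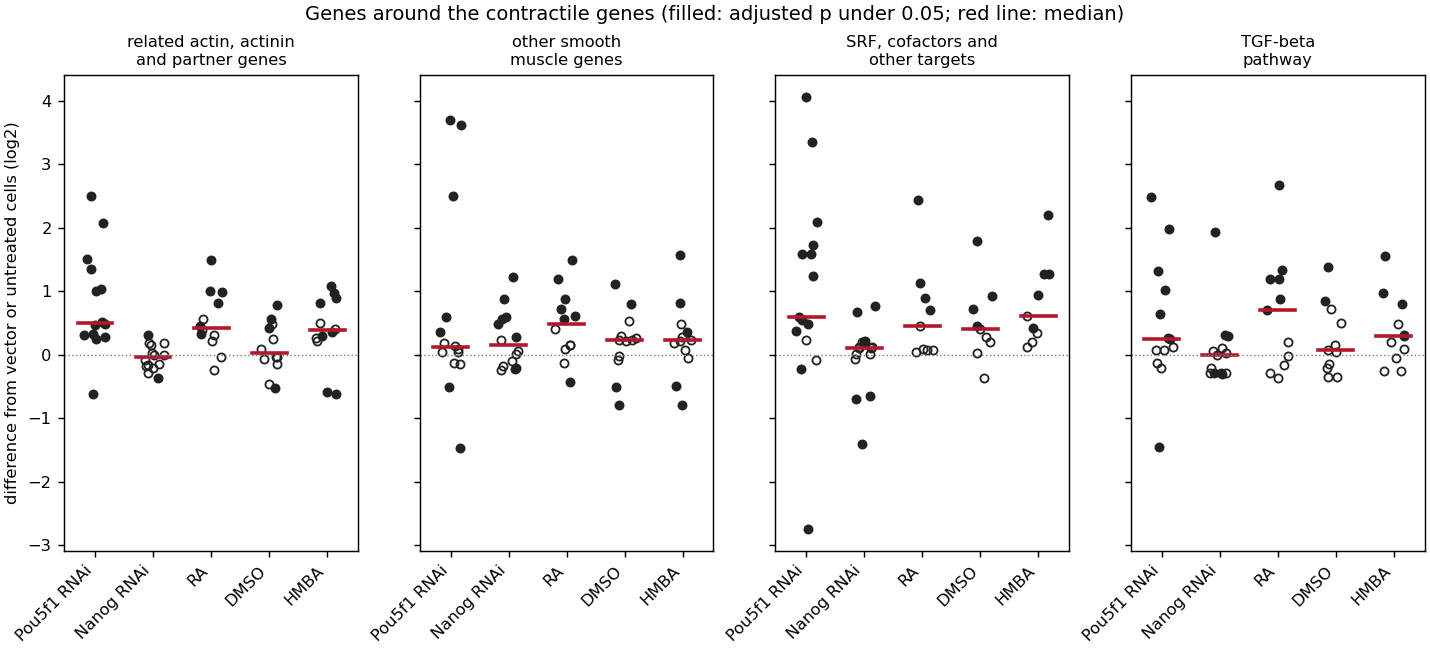
Log2 difference of each gene of the related lists (columns of points, filled where limma's adjusted p is under 0.05) with Pou5f1 RNAi, Nanog RNAi, RA, DMSO and HMBA, 1 panel a list, with a red line at the list's median. The panels of related actin genes and of SRF have medians of 0.50 and 0.60 with Pou5f1 RNAi, and the panel of other smooth muscle genes has 0.12.

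Markers of cell types that could hold contractile transcripts were counted beside these results. The marker lists were chosen with earlier results of these data known, so their counts describe the markers and do not test for a cell type. With Pou5f1 RNAi all 11 trophectoderm markers were higher, with a median of 5.65, and their mean level per array was 9.85 to 10.1 on Pou5f1 RNAi arrays, 6.75 to 7.23 on Nanog RNAi arrays and 5.56 to 5.70 on vector arrays. All 11 were also higher with Nanog RNAi (median 1.08). Of 11 endoderm markers 4 were higher and 4 lower with Pou5f1 RNAi (median -0.25), and 6 and 0 with Nanog RNAi (0.55). Over all probe sets 16% were called higher and 15.6% lower with Pou5f1 RNAi, and 8.8% and 6.78% with Nanog RNAi. Of 11 cardiac markers 3 were higher and 2 lower with Pou5f1 RNAi, of 11 skeletal muscle markers 1 and 3, of 11 fibroblast and mesenchyme markers 1 and 2, and of 7 endothelial markers 1 and 3. Their mean levels per array on Pou5f1 RNAi arrays were 4.51 to 4.60 (cardiac), 4.18 to 4.34 (skeletal), 4.21 to 4.25 (fibroblast) and 4.15 to 4.26 (endothelium), against 4.19 to 4.36, 4.44 to 4.52, 4.32 to 4.45 and 4.59 to 4.87 on vector arrays. With RA 7 of 11 trophectoderm, 6 of 9 endoderm and 4 of 9 fibroblast and mesenchyme markers were higher, and 0, 1 and 0 lower. With HMBA 6, 3 and 2 of the same lists were higher and 1, 1 and 0 lower. With DMSO 1, 3 and 1 were higher and 2, 1 and 1 lower. Over all probes 14.6%, 13.4% and 9.4% were called higher with RA, HMBA and DMSO. In either direction 4182, 4137 and 2834 of 16657 probes were called, 2439, 2237 and 1565 of them higher. The fibroblast and mesenchyme markers had mean ratios of 0.71 and 0.73, 1.50 and 1.63, and 1.20 and 1.31 on RA days 2, 4 and 6, with Col1a2 (3.22 ± 0.10) and Col1a1 (3.01 ± 0.17), the collagen I chains, in front. On the HMBA days 2, 4 and 6 they were at 0.18 and 0.27, 0.56 and 0.57, and 0.42 and 0.57, and on the DMSO days at 0.08 and 0.11, -0.18 and 0.25, and 0.23 and 0.36. These means rest on some of the markers. The median of the list over the days was 0.23 with RA, 0.02 with HMBA and 0.06 with DMSO. Thy1, Postn, Pdgfra, Pdgfrb and Prrx1 were not called with RA, at -0.19 to 0.23. The part of such cells in the rise of the contractile genes was not tested.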

How the data were processed

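Only the deposited processed values were used. Levels on the RNAi arrays are log2 values that the authors made with RMA, per the submitters' processing notes; its software and settings are not given in the sources used here. The deposited values of the 2-colour arrays are, per the labels, log ratios adjusted to treated over untreated for both dye orientations. They were read as log2, since the sources used here give no base, background correction or within-array normalization for them. Every array has a median of 0. RMA levels understate differences of dim probe sets.

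The labels give each array its group, day and dose, and each array was analysed as 1 sample. Of 45101 probe sets 64 controls were set aside. Of 21106 2-colour probes, the 16657 with a value in every group were tested, and missing values were left missing. Symbols come from GEO's platform tables: 34945 probe sets had 1 symbol, 932 several and 9160 none, and of the 2-colour probes 16345, 125 and 4636. Probes with several symbols were not named.

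limma 3.58.1 (R 4.3.3) fitted group means to all 14 or all 18 arrays, with moderated two-sided tests and Benjamini-Hochberg adjustment over all probes tested. It was checked on simulated data. Averaged treatments weight the 3 days equally. Replicate numbers of the RNAi groups were not taken as pairs, since the labels state no pairing. Of 13 same-number pairs 5 correlated over 0.1, with r of -0.25 to 0.44. Their median r was 0.07, against 0.01 for other pairs. On the 2-colour arrays the number is the dye orientation and 72 of 72 correlated over 0.1, with r of 0.51 to 0.92. These 72 are not separate values, since the deviations of the 2 arrays of a group mirror each other.

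All 10 members are named, with the targeted genes, 5 genes of like pattern for Acta2 and Tagln, and up to 2 called rises and falls of each list. The main probe set is that of highest mean level. Other list genes and markers named in the text were chosen after their values were seen. The members, lists and tests were chosen with earlier results of these data known. Promoters are from RefSeq's table (GRCm38.p6), used for these sequences only. Plots were made in Python 3.11.15 (matplotlib 3.10.9). Alternatives were a replicate block, other normalization, filters, moderation and leaving out each of the 32 arrays.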

Additional observations from a re-analysis of the deposited data

Results flagged for a closer look

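In 2 of 30 groups of RNAi arrays tested, 1 array lay far from the others by Dixon's test, which chance gives in about 1 of 20 groups. Acta1 was at 4.32 on the first vector array, above the 3.89 to 3.98 of the other 4. Flnc was at 6.54 on the fifth Nanog RNAi array, below the 6.74 to 6.82 of the other 4, on its probe set of highest mean. Without either array the calls of both genes against vector were the same in limma, Acta1 higher with Pou5f1 RNAi and not called with Nanog RNAi, and Flnc likewise.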

How the results depend on the processing

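On the RNAi arrays limma's counts moved under no alternative by over 1.5 times. The replicate block, a pairing that the labels do not state there, raised the counts of probe sets. It called 16023, 8255 and 14291 for Pou5f1 RNAi and Nanog RNAi against vector and for Pou5f1 against Nanog RNAi. Without it 14240, 7017 and 13282 were called, and the members called were 9, 3 and 9 either way. Leaving out any array also gave 9, 3 and 9. No value that was called changed sign on either platform. For Nanog RNAi Tpm1 became called with trended robust moderation (adjusted p = 0.0436) and Flnc as the mean of its probe sets (adjusted p = 0.0321).

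On the 2-colour arrays, where the replicate block is the dye orientation, it raised nearly every count. Over the days 8204, 6838 and 7964 probes were called with RA, DMSO and HMBA in place of 4182, 2834 and 4137. Between inducers 3783, 2742 and 1609 were (RA over DMSO, RA over HMBA, DMSO over HMBA), with 9, 5 and 5 members. On days 2, 4 and 6 there were 3767, 4900 and 6717 with RA, 1710, 4264 and 5174 with DMSO (6 members on day 2) and 3545, 5535 and 5473 with HMBA. For day 6 over day 2 there were 1773, 1647 and 1671, with 4, 4 and 9 members, and 326, 225 and 437 for its differences between inducers, with 1 member in the last. For day 4 over day 2 it called 3, 3 and 4 members with RA, DMSO and HMBA, where 3.41%, 4.34% and 7.71% of probes were called. For day 6 over day 4 it called 5, 4 and 4, where 1.93%, 1.82% and 1.39% were.

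Scaling arrays to one spread gave 686 and 1394 probes for RA days 2 and 6, 571 and 659 for DMSO days 2 and 4, 1370 for HMBA day 2, 54 for RA day 6 over day 2 and 8 for its difference between RA and DMSO. It gave 4 members for HMBA day 6 over day 2, 2 for RA day 6 over day 4, and 0 for DMSO day 6 over day 4 and HMBA day 4 over day 2. The cause of these shifts was not tested. Probes with values on all 18 arrays gave 1 member for RA over HMBA, since Tagln has a missing value and was not tested there.

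Leaving out single arrays gave these ranges of members called: 4 to 7 with DMSO over the days, 1 to 3 for RA over HMBA, 3 to 8 on RA days 2 and 6, 0 to 3, 3 to 6 and 1 to 2 on DMSO days 2, 4 and 6, 3 to 7 and 1 to 5 on HMBA days 2 and 6. They were 0 to 1 for RA and 1 to 3 for HMBA on day 6 over day 2, 0 to 1 for RA and HMBA on day 4 over day 2, and 0 to 2, 0 to 1 and 1 to 3 for RA, DMSO and HMBA on day 6 over day 4. Ranges of probes called were 123 to 294 for DMSO over HMBA, 521 to 1049, 508 to 1808 and 809 to 2760 on RA days 2, 4 and 6, 43 to 377, 442 to 1326 and 496 to 1957 on DMSO days, and 163 to 990, 725 to 2364 and 697 to 2272 on HMBA days. For day 6 over day 2 they were 48 to 259, 18 to 233 and 70 to 297, and for its differences 0 to 19, 3 to 11 and 3 to 40 (RA over DMSO, RA over HMBA, DMSO over HMBA). With 2 arrays a day, a test of 1 day limits what can be called.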
